A study of Mus musculus with 2 samples.

Results

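The genes described here are the amino acid transporters of 7 families of solute carriers (Slc1, Slc3, Slc6, Slc7, Slc36, Slc38 and Slc43). They were chosen by name, as all genes whose array symbol is 1 of these family names followed by "a" and a number, and the arginine carrier Slc7a2 and the cystine carrier Slc7a11 were left out. The rule gave 53 genes with 90 probes, of 28783 genes on the array. The label is broader than the chemistry, because Slc6 also holds carriers of creatine, taurine and monoamine transmitters, and Slc43a3 is known as a carrier of purine nucleobases.

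RNA came from RAW 264.7, a transformed mouse macrophage-like line that can turn into osteoclast-like cells under the cytokine RANKL. The RCCS group had been grown in a rotary cell culture system, which models microgravity, and the control group was kept at ground level. Both were RAW 264.7 cells in DMEM with 10% FBS, with no genetic change named. The protocol gives 24 h in the rotary system and RANKL at 80 ng/ml for 24 h, with control cells handled alongside. Its wording is the same for both samples and does not settle whether the controls also received RANKL. Each group had 1 array, so no test between conditions could be made, no p-value is given and the differences have no replicate behind them. In RNA from a whole culture, fewer cells of a type and less RNA per cell cannot be told apart.

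Both arrays lay on the same slide. The processed signal is the spot brightness after background subtraction, and a probe was called measured where the scanner software found it well above background on both arrays. This held for 16023 of 28783 genes (55.7%). Values are log2 ratios of RCCS over control after each array was divided by the 75th percentile of its own signals (849 and 966). Over all measured genes the median was -0.13, so a gene at that value stood level with the bulk of the genes. All 10 macrophage markers with a probe were measured, with Cd68, a lysosomal glycoprotein of macrophages, at 89271 (control) and 101856 (RCCS), and 9 of the 10 had a ratio above 0, highest for the Fc receptor Fcgr3 (5.41-fold) and the integrin Itgam (4.00-fold). Of 7 osteoclast markers 6 were measured, with a median of -0.54 and 4 below 0, from the fusion receptor Dcstamp at -1.62 to the protease Ctsk at 1.22. Of 4 markers each with a probe, 2 were measured for T cells (signals up to 149), 2 for B cells (up to 148), 1 for neutrophils (up to 78.8), 2 for epithelium (up to 69.6) and 2 for neurons (Tubb3 at 1081 and 1417). Of 4 fibroblast markers Col1a2 was measured (101 and 89.3), and Dcn went from 15.2, below background, to 462. The part of these markers in the results was not tested.

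Amino acids cross membranes on carriers that either follow an ion gradient or swap 1 amino acid for another. Sodium-driven carriers of Slc1, Slc6 and Slc38 load the cell with glutamine, glutamate, glycine, taurine and related molecules, the proton-driven Slc36 carriers Slc36a1 and Slc36a2 work on lysosomes and at the cell surface, and Slc7 light chains exchange amino acids after pairing with a heavy subunit of Slc3. Macrophages rely on these routes for arginine, glutamine and leucine, and leucine entry in particular is read by the growth kinase complex mTORC1.

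Of the 53 genes, 31 (58.5%) were measured on both arrays. Of the measured genes, 6 were at least 2-fold higher on the RCCS array (19.4%) and 0 were lower by that much. Over all measured genes these shares were 3.88% and 3.76%, or 7.65% either way. Over the 183 measured solute carrier genes outside the rule they were 8.20% and 2.19%. Those 183 are mostly of other families but include Slc7a11 and relatives with an older array name, such as Slc38a7. The median of the 31 genes was -0.24, below that of all genes (-0.13) and of the other solute carriers (0.00). The transporters were thus mostly near the bulk, with a few genes far above it. With probes of a signal of at least 100, the medians were -0.13 for 23 transporters and -0.12 for all genes. The 6 higher genes were Slc6a8, Slc6a4, Slc7a8, Slc7a7, Slc7a4 and Slc6a14, all from Slc6 and Slc7. The other 25 lay between -0.82 and 0.57. Of all 31, 12 (38.7%) were above 0 and 19 below, where 38.2% of all genes were above and 61.8% below.

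**Figure D1:**
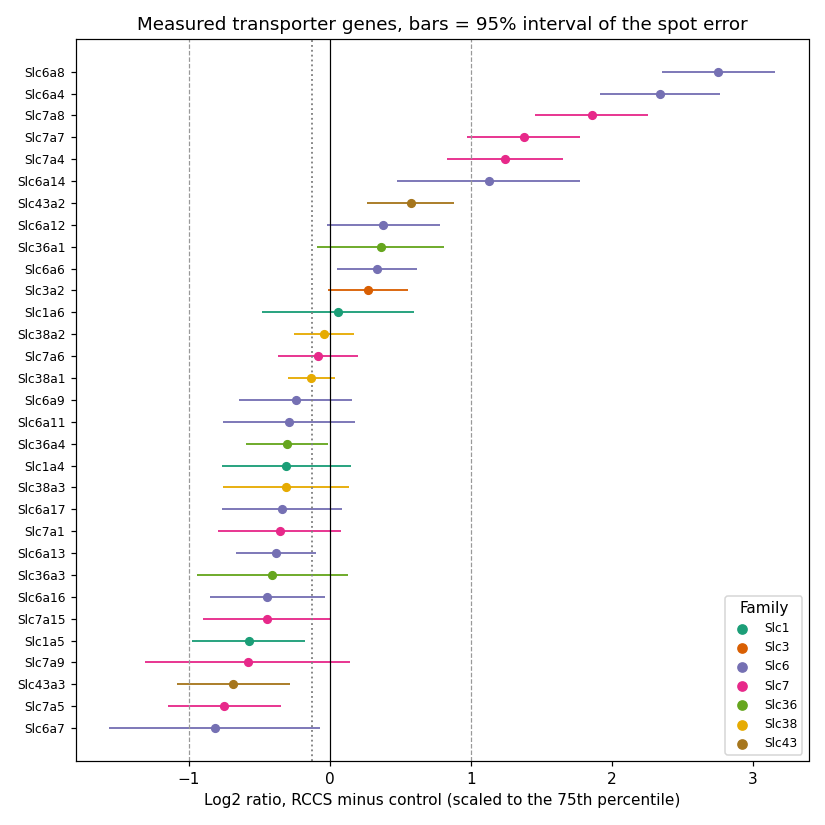
Log2 ratio of RCCS over control (horizontal axis) for each of the 31 measured transporter genes, coloured by family; bars are the 95% interval of the scanner's spot error, dashed lines mark 2-fold and the dotted line the median of all genes (-0.13). The 6 genes past 2-fold, led by Slc6a8 at 2.76, belong to Slc6 and Slc7, and no gene lies past 2-fold on the low side.

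The error bars are a technical error that the scanner software assigns to each spot. It had a median of 0.20 on the log2 scale, or a 95% half-width of 0.40, and says nothing of the spread between cultures. By that error alone the interval lay above 0 for 8 genes, below 0 for 7 and included 0 for 16. It excluded the median of all genes for 14. No share over all genes is given beside these counts, so they do not compare the group with other genes.

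Slc6a8, the creatine transporter, had the highest ratio of the group. Its probe read 357 (control) and 2744 (RCCS), a log2 ratio of 2.76 ± 0.21 (spot error) or 6.76-fold, which was the 50th highest of 16023 genes. Slc6a4, the serotonin transporter that clears this transmitter from outside the cell, read 115 and 666, a log2 ratio of 2.34 ± 0.22 or 5.08-fold, in 77th place. Both genes stayed at least 2-fold higher in all 11 alternative treatments of the data. Each has 1 probe, so neither ratio is backed by a second probe of its gene.

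The other Slc6 carriers of osmolytes and transmitters had ratios nearer to 0. Slc6a12, which carries betaine and GABA, read 26564 and 39271, a log2 ratio of 0.38. Slc6a13, a carrier of GABA and taurine, had 1 probe at 15753 and 13341 and another at 20105 and 18057, with a mean log2 ratio of -0.38. The neighbouring genes Slc6a12 and Slc6a13, with 0 protein-coding genes between them on chromosome 6, thus lay on opposite sides of 0. Their difference of 0.76 had a 95% spot interval of 0.27 to 1.25, for a pair chosen after the values were seen. Slc6a6, the taurine transporter, read 10810 and 15647 on 1 probe and 5122 and 7300 on the other, with both probes near 0.34. The 5 measured carriers of GABA, betaine, taurine and creatine had a median of 0.34, with Slc6a8 highest and Slc6a11, a GABA carrier, at -0.29 and a signal under 100.

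Slc6a14, a carrier of both neutral and cationic amino acids, rested on a dim probe. Its measured probe read 31.6 on the control array, close to the dimmest signal there that counted as well above background (24.2), and 78.6 on the RCCS array, a log2 ratio of 1.13 ± 0.33. Its other probe stayed below background throughout (6.01 and 5.05). The value came to 0.27 with normexp background correction, a model of signal plus background with an offset of 50, so a 2-fold difference of this gene depends on how dim spots are handled. Slc6a9, the glycine transporter, stood at -0.24, Slc6a16, an orphan carrier, at -0.44, Slc6a17, a neutral amino acid carrier of synaptic vesicles, at -0.34 and Slc6a7, the proline transporter, at -0.82 on signals of 37.7 and 24.4. The lowest member, Slc6a7, therefore rested on a near-background probe and came to -0.26 at its nearest to 0 among the alternatives. Slc6a17 was also dim (signals up to 52.7), with measured probes at -0.60 and -0.08 and another below background.

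Below background on both arrays were Slc6a5, a glycine carrier, Slc6a2 and Slc6a3, the carriers of noradrenaline and dopamine, and Slc6a15 and Slc6a19, carriers of neutral amino acids. So was Slc6a20, whose probe is for the transcript that RefSeq names Slc6a20b. Slc6a18 exceeded background on the RCCS array alone, at 27.0, where the control array had 20.5, too dim to give a bound on the difference. Of the 19 genes of Slc6, 11 were measured.

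In Slc7, the 6 measured light chains, which pair with a heavy subunit, lay on both sides of 0. Slc7a8, which exchanges large and small neutral amino acids, read 697 (control) and 2874 (RCCS), a log2 ratio of 1.86 ± 0.20 or 3.62-fold. Slc7a7, which lets arginine and lysine out in exchange for neutral amino acids and sodium, read 1133 and 3343, a log2 ratio of 1.38 ± 0.20 or 2.59-fold. Slc7a5, the main leucine importer of growing cells and a partner of the same heavy subunit, read 5929 and 4011, a log2 ratio of -0.75 ± 0.20 or 1.68-fold lower. These readings put 2 light chains of 1 subunit above the bulk of genes and another below it.

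Slc7a6, the close relative of Slc7a7, had 1 probe at 2223 and 2160 and another at 769 and 907, with a mean log2 ratio of -0.09. A further probe of it was below background. Slc7a8 exceeded Slc7a5 by 2.61 on the log2 scale (95% spot interval 2.04 to 3.17), and Slc7a7 exceeded Slc7a6 by 1.46 (0.97 to 1.95). These pairs were chosen after the values were seen. Differences between genes of 1 array pair do not depend on a single scaling factor.

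Slc3a2, the heavy subunit that carries these light chains to the cell surface, had both probes higher on the RCCS array. They read 17083 and 26004 on 1 probe and 11322 and 14007 on the other, with log2 ratios of 0.42 and 0.12 and a mean of 0.27 ± 0.14. The ratio of the shared subunit was thus smaller than those of the light chains Slc7a7 and Slc7a8. Slc3a1, the other heavy subunit, was below background (5.12 and 4.96), while its light chain Slc7a9 was measured at a dim 38.5 and 29.2, with a log2 ratio of -0.58. Slc7a11, a further partner of Slc3a2 that the rule leaves out, was higher on each of 3 measured probes, with log2 ratios of 2.12, 3.43 and 3.70.

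Slc7a1, the general importer of arginine and lysine, read 128 and 114 and stood at -0.36. Slc7a4, a relative of the cationic carriers whose transport activity is not established, read 168 and 451, a log2 ratio of 1.24 ± 0.21 or 2.37-fold, and came to 0.99 with normexp correction and quantile normalization. Slc7a2, an inducible arginine carrier outside the rule, exceeded background on the RCCS array alone (13.8 and 124, at least 4.50-fold higher). Slc7a15 stood at -0.45 on a probe for a clone record (117 and 97.8), and its probe for the RefSeq transcript was below background. The cationic carrier Slc7a3 and the light chains Slc7a10, Slc7a12 and Slc7a13 were below background on both arrays. Slc7a14 passed it on the RCCS array alone, at 28.7 against 24.7. These signals gave a log2 ratio of 0.03 ± 0.46 and no lower bound on the difference. The 8 measured Slc7 genes had a median of -0.22, with 3 at least 2-fold higher (37.5%, where all genes had 3.88%).

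**Figure D2:**
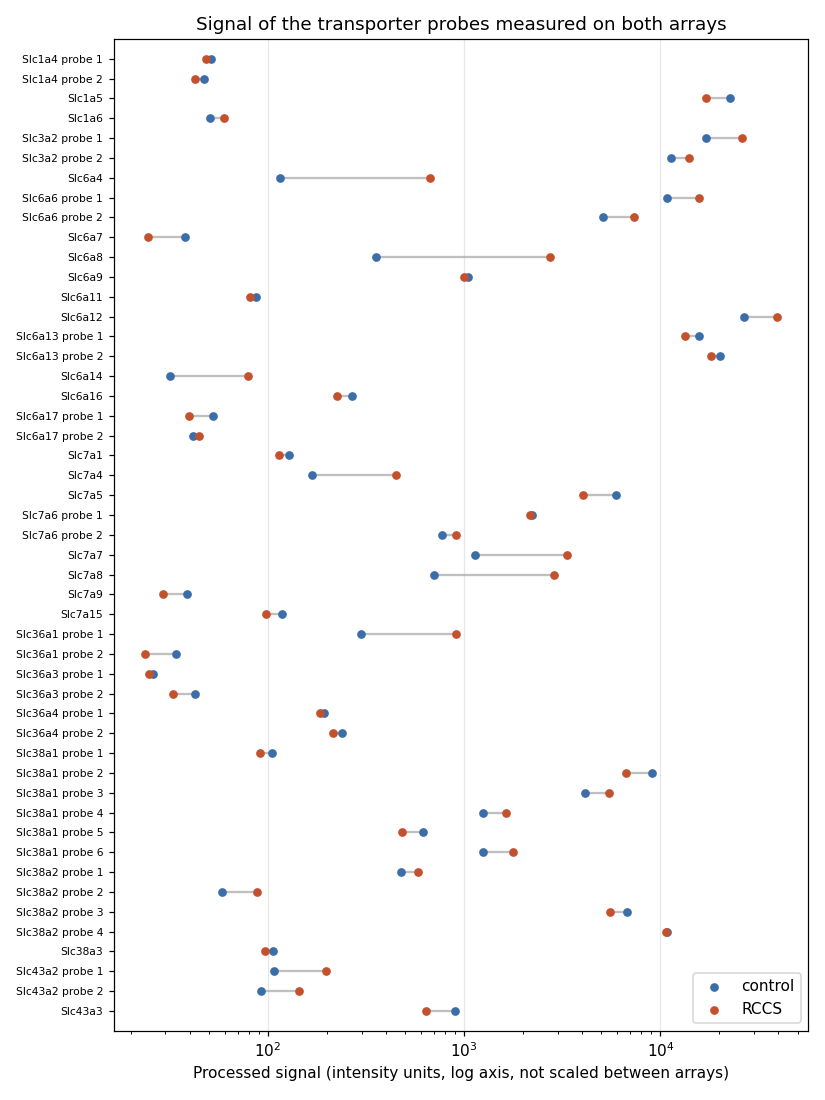
Processed signal on a log axis for each of the 49 transporter probes measured on both arrays, with control in blue, RCCS in orange and a line joining the arrays of a probe. The long lines to the right belong to Slc6a4, Slc6a8, Slc7a4, Slc7a7, Slc7a8, Slc6a14 and 1 probe of Slc36a1; signals of different probes are not comparable as levels.

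Slc7a7 and Slc7a8 lie on chromosome 14 with 15 protein-coding genes between them. Windows of 300 bases around the start sites (250 before, 50 after) were read from RefSeq on build GRCm38.p6, in which 35 of the 53 genes matched, with 56 windows. They are shown for the light chains past 2-fold, for Slc6a4 among the highest genes and for Slc36a1, whose probes disagreed. Slc6a8, Slc7a5 and Slc1a5 had no entry. Capitals mark the letters TGATGNAA, the core of the element that C/EBP and ATF factors bind in amino acid shortage, and CACGTG, the E-box, each searched on both strands. The windows of Slc7a7 and Slc7a8 are on the minus strand, at chr14:54417895-54418194 and chr14:54781837-54782136, and those of Slc6a4 and Slc36a1 on the plus strand, at chr11:76998347-76998646 and chr11:55204090-55204389.
Slc7a7: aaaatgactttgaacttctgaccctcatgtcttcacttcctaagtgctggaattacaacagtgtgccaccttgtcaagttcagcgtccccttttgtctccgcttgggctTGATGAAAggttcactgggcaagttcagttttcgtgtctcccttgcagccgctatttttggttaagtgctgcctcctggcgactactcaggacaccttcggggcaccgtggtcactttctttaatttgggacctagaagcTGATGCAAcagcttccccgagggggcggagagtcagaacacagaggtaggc
Slc7a8: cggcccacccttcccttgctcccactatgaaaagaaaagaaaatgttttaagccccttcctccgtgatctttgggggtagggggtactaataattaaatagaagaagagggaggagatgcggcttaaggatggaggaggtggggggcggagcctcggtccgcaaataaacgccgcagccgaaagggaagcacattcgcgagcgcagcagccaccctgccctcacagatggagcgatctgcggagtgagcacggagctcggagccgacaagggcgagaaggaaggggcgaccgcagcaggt
Slc6a4: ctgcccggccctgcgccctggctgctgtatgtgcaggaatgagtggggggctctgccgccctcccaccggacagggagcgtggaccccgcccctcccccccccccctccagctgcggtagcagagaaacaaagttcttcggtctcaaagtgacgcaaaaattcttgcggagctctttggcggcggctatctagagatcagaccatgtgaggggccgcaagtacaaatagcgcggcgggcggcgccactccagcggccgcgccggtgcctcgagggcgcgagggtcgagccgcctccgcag
Slc36a1: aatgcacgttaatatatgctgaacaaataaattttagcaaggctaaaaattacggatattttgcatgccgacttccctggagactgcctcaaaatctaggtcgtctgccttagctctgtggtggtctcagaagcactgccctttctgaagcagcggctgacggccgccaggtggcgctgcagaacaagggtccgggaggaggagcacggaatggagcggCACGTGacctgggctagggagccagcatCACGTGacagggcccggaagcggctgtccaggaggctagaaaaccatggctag
The Slc7a7 window was printed as the one with the most matches to TGATGNAA, with 2, of 5 windows listed for this gene. Another of the 5 held 1 match, in bases that it shares with the printed window, and the other 3 held none. The Slc36a1 window held 2 matches to CACGTG. The windows of Slc7a8 and Slc6a4 held neither. TGATGNAA was in 3 of the 56 windows (5.36%), which belong to 2 of the 35 genes (Slc7a7 and Slc1a4), against 3.97% of all 32851 windows. CACGTG was in 8 windows of 8 genes (14.3%) against 7.15%. Of these genes only Slc1a6, Slc6a16 and Slc36a1 were measured, and the mean ratio of each was under 2-fold. A match describes these letters and is not a bound site.

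Slc1a5, the sodium-dependent exchanger that brings in glutamine, read 22514 (control) and 17178 (RCCS), a log2 ratio of -0.58 ± 0.20 or 1.49-fold lower. Its relative Slc1a4, a carrier of alanine, serine and cysteine, was dim, at 51.4 and 48.1 on 1 probe and 47.1 and 42.5 on the other, with a mean of -0.31. Both genes lay below 0 in all alternatives, Slc1a4 at 0.00 to 2 decimals with the spike-in scaling. Among the carriers of glutamate and aspartate, Slc1a6 was measured (50.6 and 59.9, log2 ratio 0.06, near 0 and turning below it with normexp). The probes of Slc1a1, Slc1a3 and Slc1a7 were below background, and Slc1a2 had 1 of 3 probes above it on the RCCS array alone, at 23.5 against 25.9. The glutamate carriers of this family were therefore at or near the detection limit on both arrays.

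In Slc38, the sodium-coupled carriers of glutamine and other neutral amino acids, all 3 measured genes lay within 0.31 of 0 and below it, but Slc38a1 and Slc38a2 turned above 0 in 3 and 5 alternatives. Slc38a3, a glutamine carrier of liver and brain, read 105 and 96.8, with a log2 ratio of -0.31. The mean of Slc38a1, -0.13, hid probes that stood on both sides of 0. Its 2 probes for the RefSeq transcript read 9079 and 6703 (-0.62) and 615 and 479 (-0.55). The 3 probes for a cDNA clone record farther along the gene read 4105 and 5485, 1249 and 1627, and 1244 and 1773, with log2 ratios of 0.23, 0.20 and 0.33. A probe for another clone record near the beginning of the gene read 104 and 91.3 (-0.38). In the file's own coordinates, with no build named, the RefSeq probes lay 63318 and 64924 bases from the first probe and the clone probes 67436 to 68052, so the direction of the ratio changed within a few kilobases.

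Slc38a2 showed the same contrast between kinds of probe, in another order along the gene. Its probes for the RefSeq transcript read 6743 and 5555 (-0.47) and 10830 and 10670 (-0.21), and its probes for a clone record, which lay nearer to the beginning, read 478 and 580 (0.09) and 58.3 and 87.7 (0.40). The gap between the highest and lowest probe was 0.95 for Slc38a1 and 0.87 for Slc38a2. The mean of Slc38a1 minus that of Slc38a2, also a pair chosen with values known, was -0.09 (95% spot interval -0.36 to 0.18). Slc38a4 and Slc38a5 were below background on both arrays. Whether the probes detect different transcripts was not tested.

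Slc36a1, a proton-coupled carrier that lets small amino acids out of lysosomes, was the gene whose probes disagreed most. A probe for a clone record read 299 (control) and 911 (RCCS), a log2 ratio of 1.42 ± 0.21 or 2.68-fold. The probe for the RefSeq transcript, 10524 bases nearer to the beginning of the gene, was dim, at 33.9 and 23.7, with a log2 ratio of -0.70 ± 0.41. Their mean of 0.36 kept the gene under 2-fold, and taking the brighter probe alone put it past 2-fold. Probes more than 1 apart occurred in this 1 gene of the 12 with more than 1 measured probe, and in 7.29% of the 5091 such genes on the array. The other measured Slc36 genes were below the bulk, with Slc36a4 at 193 and 184 on 1 probe and 240 and 213 on the other (mean -0.30) and Slc36a3 dim, at 42.5 and 32.7 and at 25.9 and 24.6 (mean -0.41). Slc36a2, which lies between Slc36a1 and Slc36a3 on chromosome 11, was below background.

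**Figure D3:**
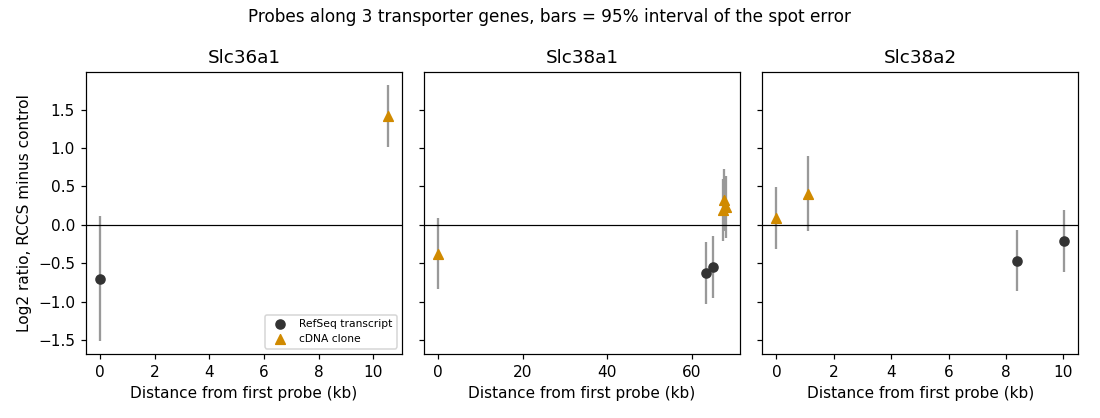
Log2 ratio of each probe of Slc36a1, Slc38a1 and Slc38a2 against its distance in kilobases from the first probe of the gene in the direction of transcription; circles are probes for RefSeq transcripts, triangles those for cDNA clone records, and bars the 95% interval of the spot error. RefSeq probes lie below 0 in all 3 genes, from -0.21 to -0.70, while the triangles lie above 0 except for the first probe of Slc38a1 (-0.38). These genes had the widest probe gaps of the group. In Slc43a2, not drawn, the RefSeq probe (0.46) and the clone probe (0.68) both lie above 0.

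The Slc43 genes lay on opposite sides of 0. Slc43a2 carries large neutral amino acids without an ion gradient. It read 107 and 196 on a probe for a clone record (0.68) and 91.7 and 144 on the RefSeq probe (0.46). The mean log2 ratio was 0.57 ± 0.16, and both kinds of probe lay above 0 here. Slc43a3, the carrier of purine nucleobases, read 903 and 638, a log2 ratio of -0.69 ± 0.20 or 1.61-fold lower. The difference of 1.26 had a 95% spot interval of 0.76 to 1.77, for a pair chosen after the values were seen. Slc43a1, the relative of Slc43a2, was below background on both arrays.

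By route of transport, each of the larger classes held genes on both sides of 0. Of 14 measured sodium-coupled genes, 6 (42.9%) were above 0 and 3 (21.4%) at least 2-fold higher, with a median of -0.09. Among 5 measured exchangers of Slc7 with known activity, 2 (40%) were above 0, both at least 2-fold higher, and the median was also -0.09. Over all genes 38.2% were above 0 and 3.88% at least 2-fold higher. The classes were set after the values were seen. For large neutral amino acids the genes Slc7a8 (1.86) and Slc43a2 (0.57) stood above the bulk and Slc7a5 (-0.75) below it. For glutamine, Slc1a5 stood at -0.58 and the means of Slc38a1, Slc38a2 and Slc38a3 at -0.13, -0.04 and -0.31. For cationic amino acids, Slc7a7 stood at 1.38, Slc7a6 at -0.09 and Slc7a1 at -0.36. The dim Slc6a14, which carries both neutral and cationic amino acids, stood at 1.13.

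Detection was low in part of the group. Of the 31 measured genes, 8 had no measured probe that reached a signal of 100 on either array, and of these only Slc6a14 was past 2-fold. The 19 genes below background on both arrays had signals between 4.44 and 22.8. With 23 genes at a signal of 100 or more, 5 (21.7%) were at least 2-fold higher, against 4.51% of all genes at that signal. For genes below background these arrays give no ratio, and their absence from the counts does not show that they were unchanged.

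Several relatives carry an older name in the array file and so fall outside the rule. Slc38a7, a lysosomal glutamine carrier named BC031853 there, read 363 and 820, a log2 ratio of 0.99. Slc38a9, the lysosomal arginine sensor of mTORC1, had 1 probe at 914 and 1417 and another at 137 and 200, with a mean of 0.40. Slc38a10 had a mean of 0.36. Slc38a8 exceeded background on the control array alone (32.7 and 23.4). Its log2 ratio of -0.67 came from signals near background and is not a bound. Slc38a11 and Slc6a20a were below background. The 3 relatives measured on both arrays were thus above 0, as were 38.2% of all genes. The 3 measured Slc38 genes under the rule had means below 0, but those of Slc38a1 and Slc38a2 changed sign in some settings.

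Lists of genes around the transporters were also counted. Among 12 measured carriers of amino acids, peptides and related molecules from other families, 3 were at least 2-fold higher (25%) and 0 lower. All genes had 3.88% and 3.76%, and the median of the 12 was 0.27. Slc22a4, the ergothioneine carrier, had 69.7 and 671 (3.08), Slc15a3, a lysosomal carrier of peptides and histidine, 1313 and 4008 (1.42), Slc66a1, which exports cationic amino acids from lysosomes, 461 and 1277 (1.28), and Ctns, the lysosomal cystine exporter, 535 and 1146 (0.91). Of 30 measured genes of mTORC1, its amino acid sensors and regulators and its substrates, 2 were at least 2-fold higher (6.67%) and 0 lower. All genes had 3.88% and 3.76%, and the median of the 30 was 0.08. The 2 higher genes were the arginine sensor Castor1 (98.2 and 260, 1.22) and Fnip1, a partner of folliculin (1.14, with 4 probes from 0.38 to 1.49). Flcn, folliculin itself, stood at 0.65 and Rptor, the mTORC1 scaffold, at -0.58.

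Of 27 measured genes of the amino acid response, 1 was past 2-fold on the high side (3.70%, where all genes had 3.88%) and 4 on the low side (14.8%, where all genes had 3.76%), and the median was -0.29. Atf4, the transcription factor of this response, was at 17408 and 11233 (-0.82). The largest ratios were those of Cth, which makes cysteine (-1.67), Atf3 (1.35), the folate enzyme Mthfd2 (-1.30) and Phgdh, the first enzyme of serine synthesis (-1.26). Among 11 measured regulators of transporter trafficking and abundance, the transcription factor gene Myc stood at -3.50 and Sgk1, a kinase that raises the surface level of many carriers, at 1.40 (210 and 630). Arrdc4, an arrestin, was at 0.73 and the ubiquitin ligase gene Nedd4 at 0.63. Any link of these genes to the transporters was not tested.

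**Figure D4:**
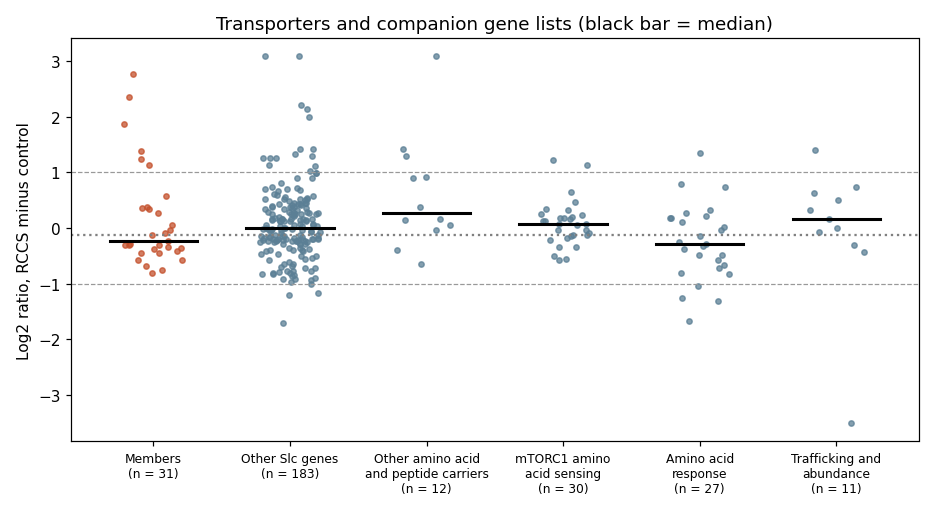
Log2 ratio of RCCS over control for the measured genes of each list (1 point a gene, black bar the median, dotted line the median of all genes at -0.13, dashed lines 2-fold). Members have a median of -0.24 with 6 genes above the upper dashed line, and the carriers of other families have a median of 0.27 with 3 genes above it.

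Some of the calls held over the alternative settings and others did not. Slc6a8, Slc6a4, Slc7a8 and Slc7a7 were at least 2-fold higher in all 11, with lowest values of 2.58, 1.86, 1.73 and 1.32. Slc7a4 fell short of 2-fold in 2 and Slc6a14 in 3, while Slc36a1 passed it in 2, at 1.42, above the main value of Slc7a7. Slc7a5, Slc1a5 and Slc43a3 were below 0 in all 11, with values nearest to 0 of -0.44, -0.27 and -0.38. The sign of 7 genes with ratios between -0.30 and 0.06 changed in at least 1 setting, namely Slc1a6, Slc6a9, Slc6a11, Slc7a6, Slc36a4, Slc38a1 and Slc38a2.

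**Figure D5:**
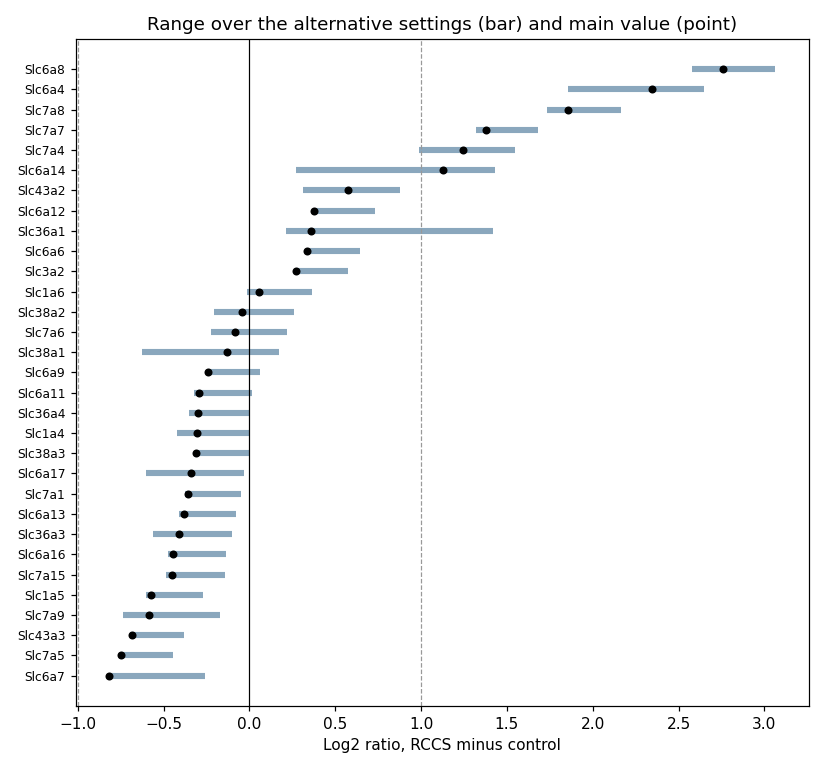
Range of the log2 ratio of each measured transporter gene over the alternative settings (bar) and its main value (point), with dashed lines at 2-fold. The bars of Slc6a8, Slc6a4, Slc7a8 and Slc7a7 stay to the right of 1, while those of Slc6a14 (0.27 to 1.43) and Slc36a1 (0.21 to 1.42) are the widest on that side.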

How the data were processed

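Intensities of 2 arrays were analysed, 1 per group. Per the file headers, the authors made these deposited intensity values with Agilent Feature Extraction 9.5.3.1 in 1 colour, with background subtracted and surface trends removed and no scaling between arrays. The deposited value table holds a ratio per probe. Compared with the scanner files, each column equals that array's signal divided by 849 or 964, with a median of 0.06 and a floor of 0.01, uncentred and not a comparison of the arrays.

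Spots called outliers were left out (117 and 120, none of them of a member) and spots of a probe averaged. The log2 of the signal minus that of the array's 75th percentile over 41171 probes was compared, RCCS minus control. A probe was measured if 50% or more of its spots were well above background on each array, and a gene took the mean of its measured probes. A gene above background on 1 array has a bound against the higher of the lowest signal well above background (24.2 and 21.2) and its own signal on the other array. Accessions of 22950 probes matched RefSeq symbols, and members kept the array's name. Signals were printed for genes past 2-fold, the 3 brightest of a family and genes with discordant probes, and other values by choice after they were seen. Members, lists and pairs were chosen with earlier results of these data known, and the classes of transport after the values were seen. The calculation was tested on simulated data. Python 3.11.15, R 4.3.3 and limma 3.58.1 were used. The number of arrays limits the precision. For 1 member no result of its own is reported here, and it stays in the counts. Alternatives were other scalings, normexp correction with an offset of 50, the deposited table, other filters on dim probes, the brightest probe, and thresholds of 1.5-fold and 3-fold.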

Additional observations from a re-analysis of the deposited data

How the results depend on the processing

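No paired analysis was possible because each group has 1 array, and no replicate could be left out. Of 333 gene values under the alternatives, 326 kept their side of 2-fold, 5 came under it (Slc6a14 in 3 and Slc7a4 in 2) and 2 passed it (both Slc36a1, 1.42, where its dim probe drops out). A value for a group of genes counted as moved when it shifted by over 0.40, the typical 95% half-width of the spot error. The count of transporters at least 2-fold higher, 6, was 4 with normexp, 5 without a filter on dim probes and 7 with the brightest probe, and 3 at a 3-fold threshold. The count at least 2-fold lower, 0, was 3 without the filter (5 higher, 3 lower), namely Slc7a3, Slc7a12 and Slc7a13, which were below background on both arrays, and 3 at 1.5-fold. The Slc36 median, -0.30, was 0.13 without the filter, which adds a gene, and 0.56 at a signal of at least 100, which drops genes and probes. The Slc6 median, -0.24, was 0.34 at that signal. Scaling on the spike-in probes shifted the median of all genes by 0.31, the 75th percentile of measured probes by 0.14 and loess by 0.13. It shifted by -0.12 without the filter. The spike-in scaling gave 1190 genes higher and 262 lower in place of 622 and 603 (82.0% higher against 50.8%), and 18 in place of 12 transporters above 0. On that scaling the median of all genes was also above 0, at 0.18, and that of the transporters was 0.06. With the 75th percentile of measured probes 66.7% of calls were higher, with loess 63.5% and with normexp and quantile normalization 61.9%. All 6 transporter calls stayed on the high side in these except for the normexp losses. Over all genes, normexp gave 364 higher and 346 lower with the 75th percentile, and no filter gave 1607 and 1804 of 28783. The brightest probe gave 674 higher and 610 lower of 16023. No share over all genes is given at the 3-fold and 1.5-fold thresholds. For the lists, carriers of other families at least 2-fold higher went from 3 to 5 with spike-in or measured-probe scaling. Amino acid response genes went from 1 to 3 higher and from 4 to 1 lower on the spike-ins, mTORC1 genes from 2 to 1 higher with normexp, and trafficking regulators from 1 to 2 higher on the spike-ins. Requiring all spots in place of 50% changed no member, because each member probe is 1 spot.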

Other observations

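Values are given here for 9 carriers of the lysosomal membrane. The set crosses the families and was chosen after the values were seen, so it is a description of these arrays only. The log2 ratios were 1.42 for Slc15a3, 1.28 for Slc66a1, 0.99 for Slc38a7, 0.91 for Ctns, 0.89 for the sialic acid exporter Slc17a5, 0.40 for Slc38a9, 0.36 for Slc36a1 and 0.06 for Slc15a4. Slc29a3, a nucleoside carrier, stood at -0.40, with probes from -1.02 to -0.04. The choice of genes fixes how many lie above 0, so no share is set against other genes.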
